A study of Mus musculus with 23 samples.

Results

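Acyl-CoA thioesterases hydrolyse fatty acyl-CoA to free fatty acid and coenzyme A, the reverse of the step that acyl-CoA synthetases catalyse. Their transcripts were compared in liver of mouse pups whose mothers and foster mothers had been fed a high-fat or a control diet. The family was taken as 10 listed genes, Acot1, Acot2, Acot3, Acot4, Acot7, Acot8, Acot9, Acot11, Acot12 and Acot13, of 49585 genes in the count table. All 10 were present and all 10 passed the filter of a mean of at least 10 counts, as did 14466 genes in all. The members were chosen by gene name, but with the fold changes of these same libraries known. The fold changes and adjusted p-values below therefore describe the fit and are not independent evidence about the family.

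All libraries were polyA RNA of C57Bl/6J liver, from 4 groups named by birth dam and then foster dam. Female mice began a diet with 10% (control, Ct) or 45% fat (high fat) when aged 3 weeks, stayed on it for 7 weeks or for 17, and were then mated to control-fed males; the group names call the second exposure MetS, for maternal metabolic syndrome. Litters were cut to 5 pups and moved on the day of birth to a dam that had delivered that day, so that Ct-Ct pups (n = 6) had no exposure, MetS-Ct pups (n = 6) prenatal exposure only, Ct-MetS pups (n = 6) nursing exposure only, and MetS-MetS pups (n = 5) both. Livers were taken at postnatal day 21, except for 1 MetS-Ct pup listed at day 22. Neither the litter nor the weeks on diet is given for each pup, so p-values measure the spread between these pups, some of which may share a dam.

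Library totals ran from 16876460 to 34527932 counts. Levels are in CPM, counts scaled to a common library size. Xist was at 907 CPM or more and Ddx3y at no more than 1 count in every library, so all pups had the transcripts of females. All 8 hepatocyte markers were present and none was called in the nursing or both-exposure comparison. For scale, 2.27% of all genes tested were called higher with nursing exposure and 3.06% with both exposures. In either direction these shares were 4.22% and 5.78%. Kupffer cell and macrophage markers were higher with nursing exposure for 4 of 8 genes and with both exposures for 5 of 8; their summed level was 280 to 362 CPM in unexposed pups, 370 to 416 with prenatal exposure only, 400 to 603 with nursing exposure only and 346 to 578 with both. Erythroid markers were higher for 2 of 8 genes in both comparisons, with sums of 285 to 832, 184 to 305, 204 to 495 and 419 to 772 CPM in the same order of groups. Of 6 endothelial markers 1 was higher in both comparisons, and of 6 stellate cell markers 1 was higher with nursing exposure and 1 lower with both exposures; none of the 5 cholangiocyte markers was called. Of the adipocyte and exocrine pancreas markers 1 each was tested and not called, and no brown adipocyte marker had enough counts to be tested. MetS-MetS_110 stood apart by 598 CPM of skeletal muscle markers (Acta1, Ckm, Myh4, Tnnt3) against at most 3.72 in any other library, and all 3 of these genes that were tested were called higher with both exposures. It also had the highest summed adipocyte (12.4 CPM) and brown adipocyte markers (6.05 CPM, against at most 1.19 in the other groups). The part of these cell types in the thioesterase values was not tested, and in whole liver fewer cells of a type and less RNA per cell cannot be told apart.

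The family has 2 unrelated folds. Acot1 to Acot4 are type I enzymes with an alpha/beta hydrolase fold, encoded by neighbouring genes and placed in the cytosol (Acot1), mitochondria (Acot2) and peroxisomes (Acot3, Acot4). Type II enzymes have the hotdog fold: Acot7, Acot11 and Acot12 of the cytosol, Acot9 and Acot13 of mitochondria, and Acot8 of peroxisomes. Several type I genes are textbook targets of PPAR-alpha, the nuclear receptor that senses fatty acids in liver and induces their oxidation in fasting and on high-fat feeding.

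In GRCm38 (GENCODE M21) the type I genes lay on chromosome 12, + strand, within 123 kb (83987861 to 84111349) that held 6 Acot genes in the order Acot2, Acot1, Acot4, Acot3, Acot5, Acot6. Acot2 spanned 83987861 to 83993873, Acot1 84009490 to 84018371, Acot4 84038379 to 84048601 and Acot3 84052144 to 84060402. Acot3 began 3542 bases after the end of Acot4, and Acot1 began 15616 bases after the end of Acot2. The coding sequences of Acot1 and Acot2 were identical at 95.3% of 1236 aligned bases, those of Acot1 and Acot3 at 83.9% and those of Acot3 and Acot4 at 74.2%. The type II genes lay apart, on chromosomes 2 (Acot8), 4 (Acot7, Acot11), 13 (Acot12, Acot13) and X (Acot9). The likeness of Acot1 and Acot2 bears on how reads can be assigned to either, so their most and least alike stretches are shown. The longest run without a difference held 273 coding bases, 887 to 1159 of Acot1 and 1010 to 1282 of Acot2, counted from the A of the start codon:
Acot1 and Acot2: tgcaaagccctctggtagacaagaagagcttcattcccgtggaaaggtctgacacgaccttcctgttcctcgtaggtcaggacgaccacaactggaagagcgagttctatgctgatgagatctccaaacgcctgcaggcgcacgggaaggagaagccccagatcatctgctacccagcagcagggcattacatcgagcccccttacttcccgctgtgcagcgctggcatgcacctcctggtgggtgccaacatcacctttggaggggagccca
The 60 aligned coding bases with the most differences, 823 to 882 of Acot1 and 946 to 1005 of Acot2, differed at 13 bases, in capitals:
Acot1: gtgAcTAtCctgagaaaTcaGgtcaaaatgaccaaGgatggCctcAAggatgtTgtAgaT
Acot2: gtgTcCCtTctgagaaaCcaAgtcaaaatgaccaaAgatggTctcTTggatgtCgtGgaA
Of all 50-base windows of the Acot1 transcript, 33.6% also occurred, read on either strand, in a transcript of another gene (23.7% in Acot2), against 27.7% for Acot2, 21.7% for Acot3 and 14.4% for Acot4. Acot11 (24.4%, with Fam151a), Acot9 (20.2%, with Acot10) and Acot8 (17.7%, with Snx21) shared windows as well, Acot12 shared 3.32%, and Acot7 and Acot13 shared none. How such reads were counted was not recorded in the labels or notes, so the level of Acot1 against Acot2 is uncertain. The same limit holds for the levels, order and ratios below of the other members that shared windows.

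Per kilobase of transcript, the scale on which genes can be compared, Acot12 and Acot13 made up most of the family's transcripts in unexposed liver. Acot12, an acetyl-CoA hydrolase of liver cytosol, stood at 66 ± 11.6 CPM per kilobase (SD, n = 6) in Ct-Ct, and Acot13, a small mitochondrial enzyme for long-chain acyl-CoA, at 47.8 ± 7.11. Acot7, best known from neurons, followed at 12.9 ± 0.996, beside Acot8, a peroxisomal enzyme of broad substrate range, at 11 ± 2.15. The type I genes were low: Acot4 was at 4.82 ± 2.11, Acot3 at 3.35 ± 3.61, Acot2 at 1.6 ± 0.463 and Acot1 at 1.16 ± 0.401. Acot9 was at 2.78 ± 0.471 and Acot11 at 1.43 ± 0.0532. Ordered by mean level, the members ran Acot12, Acot13, Acot7, Acot8, Acot4, Acot3, Acot9, Acot2, Acot11 and Acot1, and the ranges of the 6 pups overlapped between neighbours except between Acot13 and Acot7 and between Acot8 and Acot4.

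The type I genes gave 6.91 ± 3.16% of the family's summed level per kilobase without exposure, 12 ± 3.49% with prenatal exposure only, 12.1 ± 4.43% with nursing exposure only and 21.2 ± 6.65% with both (SD). The lowest MetS-MetS pup had 13.6% and the highest Ct-Ct pup 11.9%. By compartment, the peroxisomal genes had a summed mean of 19.2 ± 7.5 CPM per kilobase for Ct-Ct and of 42.7 ± 8.3 for MetS-MetS, with ranges of 13.1 to 33.2 and 29.4 to 52.1 that overlapped. The cytosolic sum was 81.5 ± 11.8 and 97.9 ± 17.6, most of it Acot12, and the mitochondrial sum was 52.1 ± 7.27 and 64 ± 1.83, most of it Acot13. These sums and shares were not tested.

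**Figure D1:**
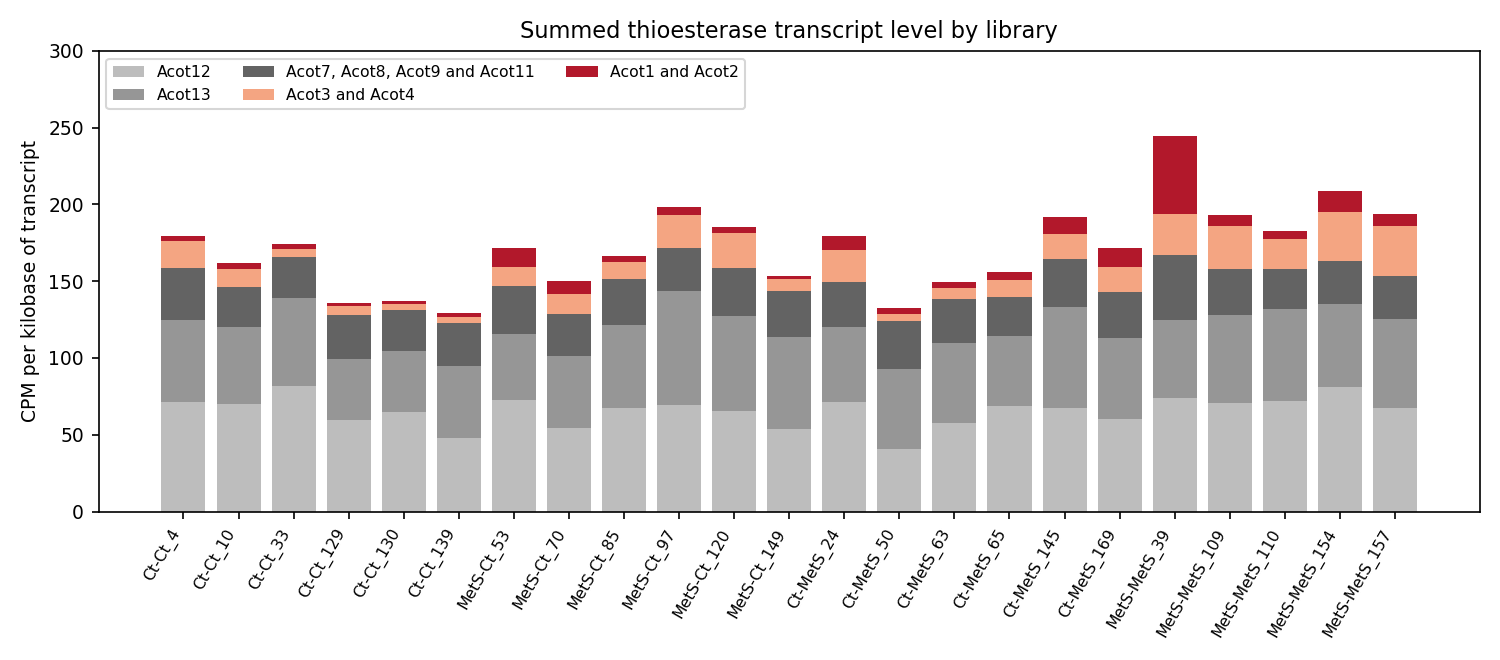
Summed transcript level of the 10 thioesterase genes in each of the 23 libraries, in CPM per kilobase of transcript, stacked by gene or gene group. The grey type II parts (Acot12, Acot13 and the 4 others) make up most of every bar, and the coloured type I parts sum to 25 to 77.5 in the MetS-MetS libraries and to at most 29.9 in any other, with the tallest Acot1 and Acot2 part in MetS-MetS_39.

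The first comparison set pups exposed at both times against pups never exposed. In MetS-MetS liver all 4 type I genes were called higher and no member was called lower. Acot1 rose by 10.2-fold, Acot3 by 5.38-fold, Acot2 by 3.25-fold and Acot4 by 2-fold. None of the 6 type II genes passed the test. The background was 5.78% of the 14466 genes called in either direction and 3.06% called higher (edgeR quasi-likelihood test, Benjamini-Hochberg adjusted p under 0.05). The median log2 fold change was 2.06 over the type I genes, 0.061 over the type II genes and -0.0038 over all genes tested. By compartment, 1 of 4 cytosolic, 1 of 3 mitochondrial and 2 of 3 peroxisomal genes were called; differences between members were not tested.

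Acot1, which hydrolyses long-chain acyl-CoA in the cytosol and is strongly induced by fasting in mouse liver, ran from 1.72 to 3.92 CPM in Ct-Ct (median 2.38). In MetS-MetS the 5 libraries had 89.6, 9.58, 6.43, 19.3 and 9.29 CPM. Every MetS-MetS pup was above every Ct-Ct pup, and MetS-MetS_39 was far above the other 4. The log2 fold change was 3.35 ± 0.66 (SE; adjusted p = 0.0108, edgeR). Without MetS-MetS_39 it was 2.09 ± 0.496, or 4.24-fold, and still called (adjusted p = 0.0221).

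Acot2, its near copy in the mitochondrial matrix, had 2.28 to 4.95 CPM in Ct-Ct (median 3.42) and 24.6, 6.4, 6.37, 11.6 and 8.15 CPM in MetS-MetS. These groups did not overlap either, and MetS-MetS_39 was again the highest. The log2 fold change was 1.70 ± 0.41 (adjusted p = 0.0206, edgeR); without MetS-MetS_39 it was 1.21 ± 0.371 and was not called (adjusted p = 0.057).

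Acot3, a peroxisomal enzyme for medium- and long-chain acyl-CoA, was at 2.6 to 5.6 CPM in 4 of the Ct-Ct pups and at 20.9 and 32.6 in the others, Ct-Ct_10 and Ct-Ct_4. The MetS-MetS pups had 57.6, 60.7, 39.3, 76.4 and 75.9 CPM, all above the highest Ct-Ct pup, and here MetS-MetS_39 lay within the range of the others. The log2 fold change was 2.43 ± 0.63 (adjusted p = 0.0301, edgeR). Acot4, the peroxisomal thioesterase for succinyl-CoA and other dicarboxylyl-CoAs, had 17 to 52.5 CPM in Ct-Ct (median 25.6) and 62.7, 65.4, 48.3, 58.6 and 63.5 in MetS-MetS. Only Ct-Ct_4, at 52.5, reached into the MetS-MetS range. Its log2 fold change was 1.0 ± 0.26 (adjusted p = 0.0292, edgeR). Acot1, Acot2 and Acot3 were thus the members whose groups did not overlap, where 2.44% of all genes tested were higher with no overlap.

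The 3 calls other than Acot1 were lost without some libraries. Acot3 and Acot4 were each called in 18 of 23 fits with a library left out. Among the losses were Acot3 without MetS-MetS_154 and Acot4 without MetS-MetS_109. Without Ct-Ct_129 only Acot1 was called (adjusted p = 0.034; 0.058 for Acot2, 0.076 for Acot3 and 0.0725 for Acot4), and without Ct-Ct_130, Ct-Ct_139 or MetS-MetS_157 only Acot1 and Acot2 were, 2 members in each case. Without MetS-MetS_110, the library with muscle markers, all 4 were called (adjusted p from 0.0114 for Acot1 to 0.0469 for Acot3 and Acot4). Acot3 and Acot4 were not called with no filter on low counts (adjusted p = 0.062 and 0.0624) or with only these groups fitted (0.0646 and 0.0503).

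**Figure D2:**
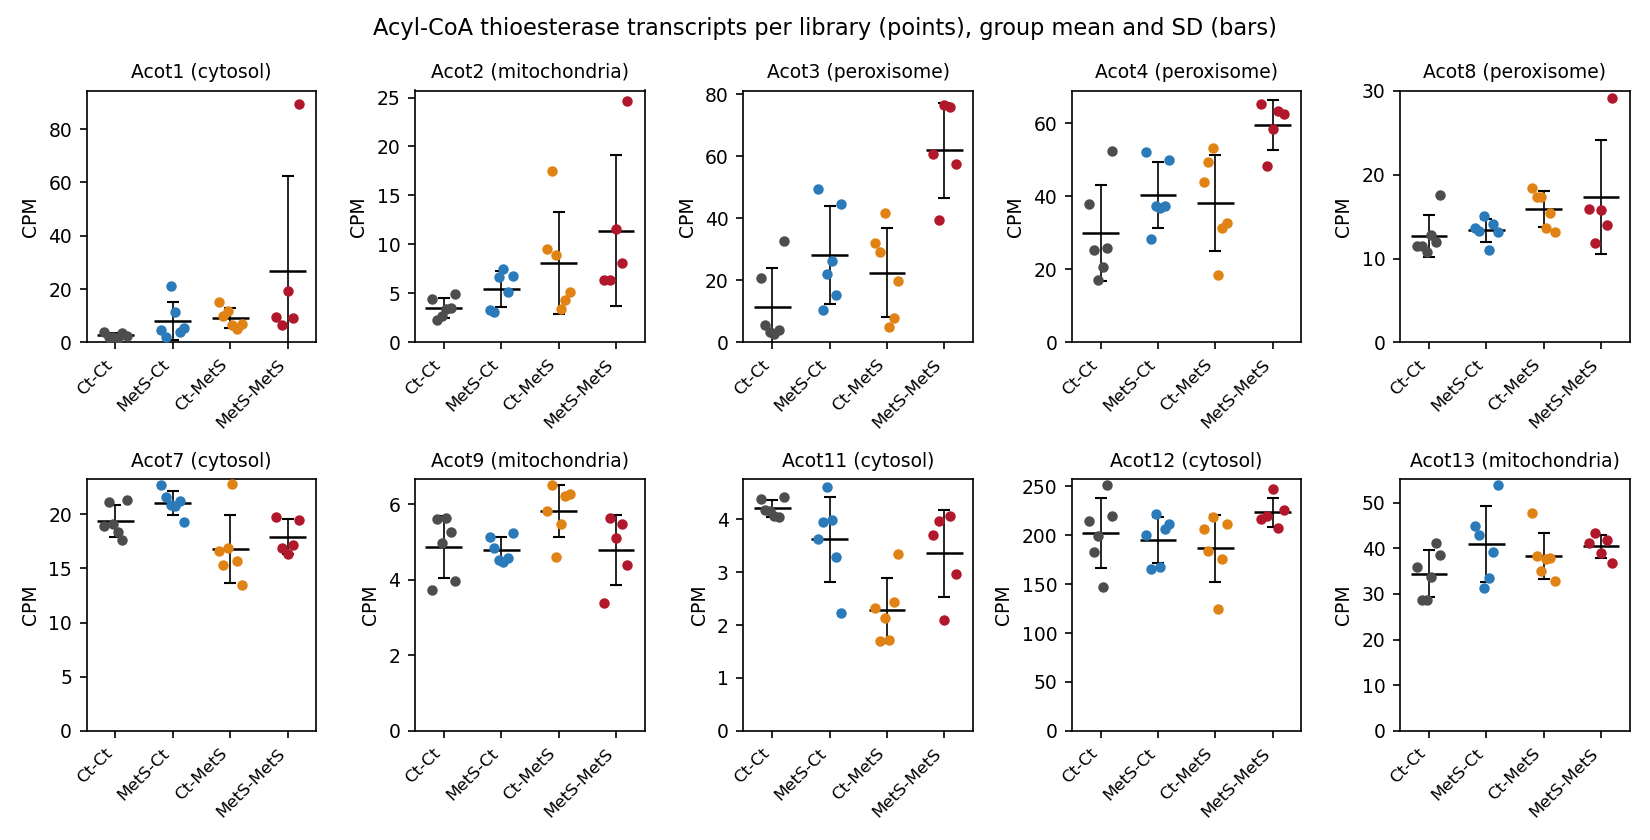
Level of each member in CPM (vertical axes, from 0) by group, 1 point per library, with the group mean (horizontal line) and SD (vertical bar, cut at 0). Acot1 to Acot4 have their highest means in MetS-MetS, with 1 library at 89.6 CPM for Acot1, and so do Acot8 and Acot12. Acot12 and Acot13 overlap in all groups, and Acot11 is lowest in Ct-MetS.

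The type II genes in the same comparison had log2 fold changes between -0.33 and 0.45. Acot8 had a mean of 12.7 ± 2.47 CPM without exposure and of 17.3 ± 6.79 with both (log2 fold change 0.45 ± 0.17, adjusted p = 0.113, edgeR), where MetS-MetS_39 at 29.1 was the only pup above all Ct-Ct pups. Acot12 had 202 ± 35.3 and 223 ± 15.1 CPM, and Acot13 at 34.4 ± 5.13 and 40.4 ± 2.53. Acot9, a mitochondrial enzyme, was at 4.86 ± 0.825 and 4.79 ± 0.927 CPM, and Acot7 at 19.4 ± 1.5 and 17.9 ± 1.62. Acot11 was at 4.2 ± 0.156 and 3.35 ± 0.823 CPM, with 4 of 5 MetS-MetS pups below every Ct-Ct pup. None of these differences passed the test (adjusted p from 0.113 to 0.94, edgeR). The smallest unadjusted p was 0.0157, for Acot8.

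Nursing exposure was measured next, as the mean of its effect in control-born and in MetS-born pups. Acot1 and Acot2 rose, Acot11 fell, and the other 7 members were not called; over all genes 4.22% were called, 2.27% higher and 1.95% lower. Acot1 had a median of 3.75 CPM over the 12 control-nursed pups and of 9.58 over the 11 MetS-nursed pups, with ranges of 1.72 to 21.1 and 5 to 89.6. Its log2 fold change was 1.76 ± 0.44, or 3.39-fold (adjusted p = 0.0273, edgeR), and 10 of 11 MetS-nursed pups were above the control-nursed mean. Without MetS-MetS_39 it was 1.13 ± 0.33 with an adjusted p of 0.0523, so this call rested on that library. Acot2 had ranges of 2.28 to 7.51 and 3.39 to 24.6 CPM around medians of 3.94 and 8.15. Its log2 fold change was 1.14 ± 0.28, or 2.21-fold (adjusted p = 0.0238, edgeR), and it was called with each library left out in turn. With no filter on low counts neither gene was called (adjusted p = 0.0598 for Acot1 and 0.0566 for Acot2).

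Acot11, a long-chain thioesterase with a START lipid-binding domain that is best known from brown fat, went the other way. Control-nursed pups had 2.23 to 4.61 CPM (median 4.05) and MetS-nursed pups 1.7 to 4.05 (median 2.44). The log2 fold change was -0.51 ± 0.13 (adjusted p = 0.0333, edgeR). The call was lost, with adjusted p between 0.0504 and 0.0631, without any of 7 libraries: Ct-Ct_4, Ct-Ct_129, MetS-Ct_70, Ct-MetS_24, Ct-MetS_145, Ct-MetS_169 or MetS-MetS_154. Acot7 had the next smallest p (log2 fold change -0.22 ± 0.069, adjusted p = 0.0713, edgeR): 20.2 ± 1.54 CPM in control-nursed and 17.3 ± 2.54 in MetS-nursed pups. Its highest MetS-nursed value, 22.8 in Ct-MetS_50, was above every control-nursed pup; without that library Acot7 was called lower (-0.27 ± 0.0545, adjusted p = 0.00601). Acot8 had a log2 fold change of 0.35 ± 0.12 (adjusted p = 0.095), Acot3 of 1.05 ± 0.43 (0.158) and Acot4 of 0.46 ± 0.18 (0.142). Acot9, Acot12 and Acot13 lay between 0.04 and 0.13.

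The effects that make up this mean, in control-born and in MetS-born pups, share no pup. In control-born pups (Ct-MetS against Ct-Ct) Acot11 was the only member called, where 0.954% of all genes were called and 0.366% were called lower. It had 4.41, 4.38, 4.04, 4.17, 4.16 and 4.06 CPM in the Ct-Ct pups, an SD of 0.156 around 4.2, and 2.14, 1.71, 2.44, 3.35, 2.32 and 1.7 in the Ct-MetS pups. The groups did not overlap, as was the case in this direction for 0.512% of all genes. The Ct-Ct range was narrow, and 5 of 6 MetS-Ct and 4 of 5 MetS-MetS pups were also below every Ct-Ct pup. The log2 fold change was -0.89 ± 0.18, or 1.86-fold lower (adjusted p = 0.0224, edgeR), from 52 to 131 counts a library in these groups. It was not called without Ct-Ct_4 (adjusted p = 0.0519), Ct-Ct_10 (0.0567) or Ct-MetS_169 (0.0615), and without Ct-MetS_50 Acot7 was called lower as well (-0.31 ± 0.077, adjusted p = 0.0481). In MetS-born pups (MetS-MetS against MetS-Ct), where 0.415% of all genes were called, Acot11 had 3.62 ± 0.808 and 3.35 ± 0.823 CPM and a log2 fold change of -0.12 ± 0.19. The test of the difference between birth groups, the interaction of birth dam and foster dam, gave 0.77 ± 0.26 for Acot11 (unadjusted p = 0.00763, adjusted p = 0.892, edgeR), so a difference was not shown. No gene was called in that test (0%; 5.44% had an unadjusted p under 0.05, and DESeq2 called 4 genes).

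Acot1 separated control-born pups by foster dam but did not pass the test there. The Ct-MetS pups had 11.6, 6.58, 5, 6.79, 15.1 and 9.88 CPM, all above the Ct-Ct maximum of 3.92, and 0.912% of all genes were higher with no overlap in this comparison. The log2 fold change was 1.79 ± 0.62 with an adjusted p of 0.176 (edgeR) when all 4 groups shared an estimate of the spread, and 1.80 with an adjusted p of 0.0254 when only these 2 groups were fitted. In MetS-born pups it was 1.73 ± 0.61 (adjusted p = 0.223), and 0.47 ± 0.482 without MetS-MetS_39. Acot2 had 1.21 ± 0.39 in control-born (adjusted p = 0.14) and 1.08 ± 0.40 in MetS-born pups (0.232). Acot3 and Acot4 had 0.96 ± 0.60 and 0.35 ± 0.25 in control-born, and 1.15 ± 0.61 and 0.57 ± 0.26 in MetS-born pups. For the 4 type I genes the interaction lay between -0.13 and 0.21 with standard errors of 0.36 to 0.85, and none was called.

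**Figure D3:**
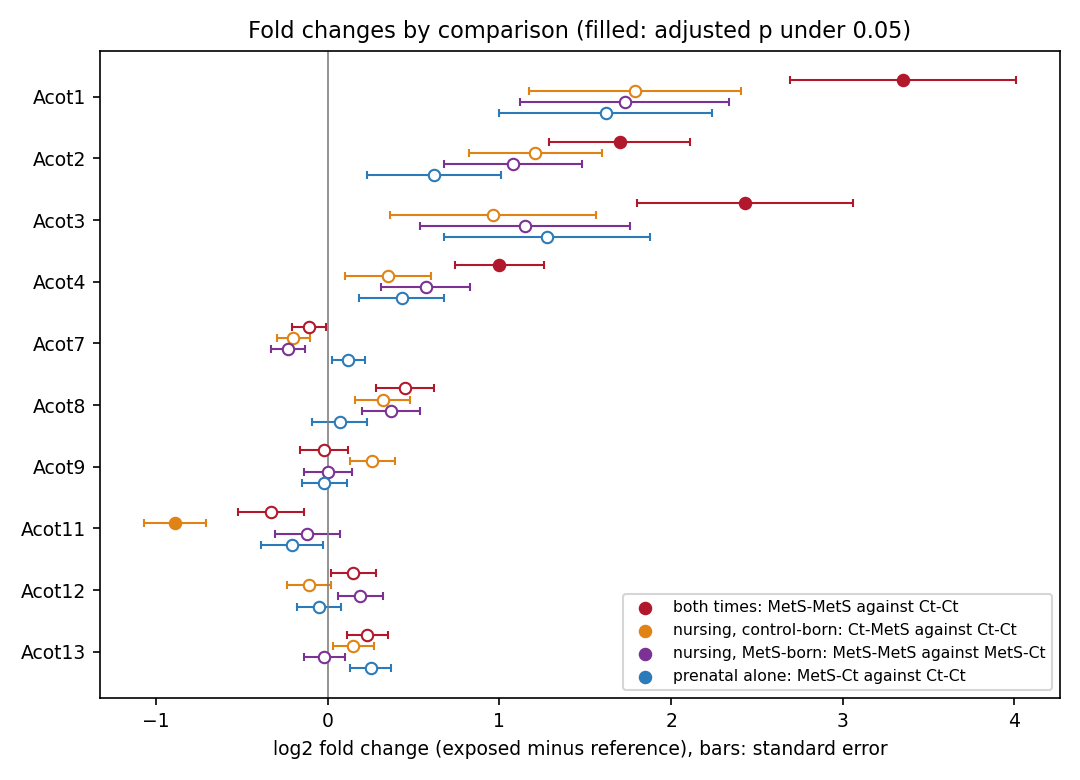
Log2 fold change (horizontal axis, exposed minus reference) of each member in 4 comparisons, with standard errors as bars and filled points where the adjusted p was under 0.05. The filled points are Acot1 to Acot4 with both exposures and Acot11 with nursing exposure in control-born pups; the comparisons with both exposures, nursing in control-born pups and prenatal exposure alone share the Ct-Ct pups.

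Prenatal exposure was the remaining question. In MetS-Ct against Ct-Ct pups no member was called, nor was any gene of the 14466 (0%), while 5.9% had an unadjusted p under 0.05. DESeq2 called 14 genes and no member, but it gave no adjusted p for Acot1, Acot2, Acot8, Acot9 and Acot11. It could therefore not call those members. The type I genes had log2 fold changes of 1.62 ± 0.62 (Acot1), 1.28 ± 0.60 (Acot3), 0.62 ± 0.39 (Acot2) and 0.43 ± 0.25 (Acot4), all with adjusted p of 0.825 or more (edgeR). Acot13, of type II, had 0.25 ± 0.12. The members with an unadjusted p under 0.05 were Acot1 (0.017), Acot3 (0.0441) and Acot13 (0.0463, edgeR). The MetS-Ct pups were spread widely: Acot1 was at 21.1, 11.5, 3.92, 5.46, 4.52 and 2.07 CPM, where MetS-Ct_53 and MetS-Ct_70 were high and MetS-Ct_149 fell within the Ct-Ct range. Acot3 was at 22, 26.4, 15.4, 44.7, 49.5 and 10.4 CPM, high in other pups than Acot1. Between MetS-MetS and Ct-MetS pups, which differ in the birth dam, no member and no gene was called (0%, and 15.6% with an unadjusted p under 0.05). DESeq2 called 73 genes in this comparison, but of the members it gave an adjusted p for Acot12 only. There Acot1 had a log2 fold change of 1.56 ± 0.61 and 0.29 ± 0.482 without MetS-MetS_39, Acot3 had 1.46 ± 0.61, Acot4 0.65 ± 0.26 and Acot2 0.50 ± 0.39, with adjusted p from 0.24 to 0.554 for these type I genes. The member with the smallest p was Acot11 (0.56 ± 0.19, unadjusted p = 0.00843, adjusted p = 0.214, edgeR). It had a mean of 2.28 CPM in Ct-MetS and of 3.35 in MetS-MetS. Without MetS-MetS_39 the Acot2 value was 0.01 ± 0.368, with a MetS-MetS mean of 8.14 CPM against 8.13 for Ct-MetS. Each type I gene had its highest mean in MetS-MetS when all libraries were kept, as did Acot8 and Acot12 of type II. Without MetS-MetS_39 the MetS-MetS mean was 63.1 CPM for Acot3, 58.9 for Acot4 and 11.1 for Acot1, still above the other groups, while Acot2 was level with Ct-MetS. Neither step from a single exposure to both passed the test.

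The type I genes varied together across the 23 libraries, most closely Acot3 with Acot4 and Acot1 with Acot2. Pearson's r of log2 CPM was 0.96 between Acot3 and Acot4, which adjoin each other, and 0.93 after each group's mean was removed. Between Acot1 and Acot2 it was 0.86, and 0.75 with group means removed, against 0.64 and 0.32 between Acot1 and Acot3. The same values were 0.60 and 0.30 for Acot1 with Acot4, 0.71 and 0.53 for Acot2 with Acot3, and 0.72 and 0.58 for Acot2 with Acot4. Acot8, of type II, also ran with Acot1 (0.71 and 0.61) and with Acot2 (0.74 and 0.63). Acot12, of type II as well, ran with Acot4 (0.60 and 0.61) and with Acot3 (0.53 and 0.58). With group means removed, these values were above those of Acot1 with Acot3 and with Acot4, so varying together was not particular to type I. Acot1 and Acot2 share sequence and all points share library depth, so these are descriptions. The pairs did not keep a fixed ratio. Per kilobase, Acot3 over Acot4 had a median of 0.384 in Ct-Ct (0.227 to 1.12) and of 1.68 in MetS-MetS (1.47 to 2.36), so that Acot3 was the lower in 5 of 6 Ct-Ct pups and the higher in all MetS-MetS pups. Acot1 over Acot2 was 0.494 to 0.999 in Ct-Ct and 0.976 to 3.53 in MetS-MetS, with 3.06 in MetS-Ct_53 and 0.546 in Ct-MetS_169, where Acot2 was at 17.5 CPM and Acot1 at 9.88.

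**Figure D4:**
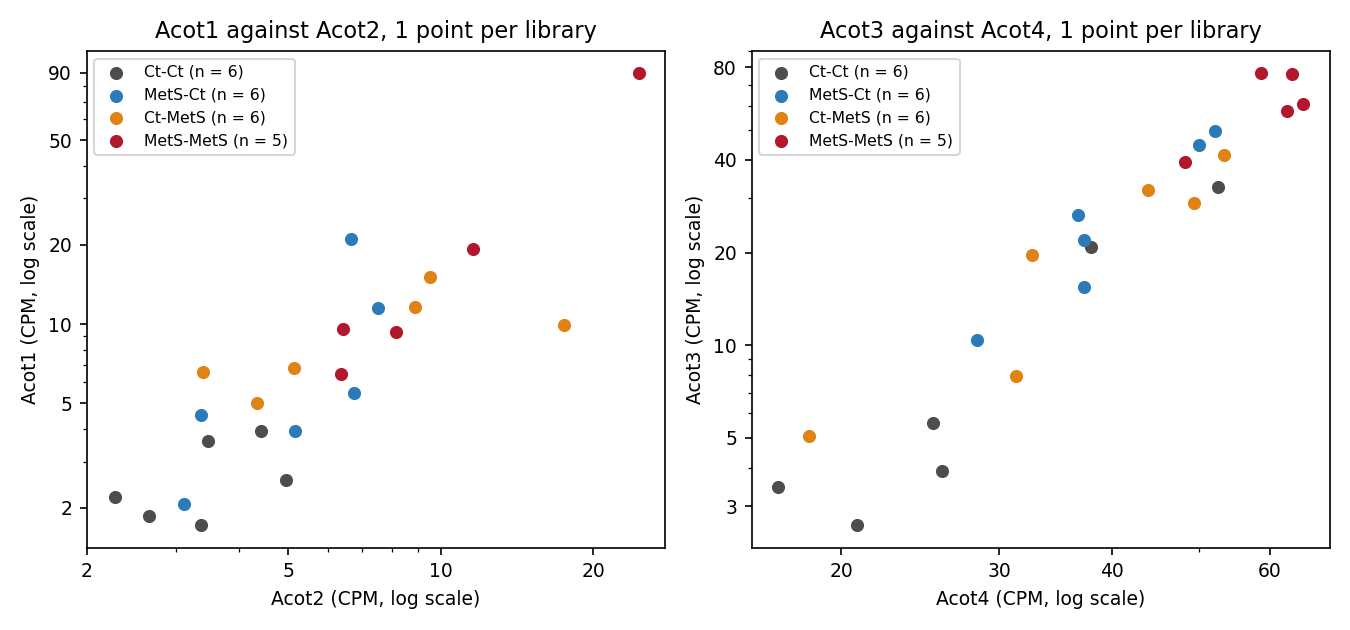
Level of Acot1 against Acot2 (left) and of Acot3 against Acot4 (right) in CPM on log axes, 1 point per library, coloured by group. Acot3 and Acot4 vary closely together (r = 0.96 of log2 CPM), and MetS-MetS_39 is the top right point on the left (89.6 and 24.6 CPM).

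Since Acot3 and Acot4 varied together, their upstream sequences were read for the PPAR response element, a direct repeat of the hexamer AGGTCA with 1 base between. The 250 bases before the start of each, from RefSeq (GRCm38.p6, chromosome 12, + strand), are given with the hexamer, which reads TGACCT on the other strand, in capitals:
Acot3, chr12:84051894-84052143: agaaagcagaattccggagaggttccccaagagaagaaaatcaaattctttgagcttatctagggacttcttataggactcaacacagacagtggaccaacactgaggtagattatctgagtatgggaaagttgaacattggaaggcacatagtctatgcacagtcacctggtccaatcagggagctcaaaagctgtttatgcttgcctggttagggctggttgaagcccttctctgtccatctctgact
Acot4, chr12:84038129-84038378: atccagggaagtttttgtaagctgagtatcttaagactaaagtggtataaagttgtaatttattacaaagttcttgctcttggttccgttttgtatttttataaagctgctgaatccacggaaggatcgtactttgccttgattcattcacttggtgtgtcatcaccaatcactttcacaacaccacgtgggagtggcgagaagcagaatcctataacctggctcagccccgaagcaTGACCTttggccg
Promoters of 9 of the 10 members were matched, each from 250 bases before to 50 after the start. The relaxed DR1 repeat, a pair of AGGNCA hexamers with any base between, was searched on both strands; it was in 0 of them, and in 0.381% of 32851 promoters. The hexamer AGGTCA alone was in 3 members (Acot3, after the start, Acot4 and Acot12), and in 16.3% of all promoters. These are matches of letters in a short window and show neither a site nor its absence elsewhere.

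The other genes of acyl-CoA handling were read from lists that, like the family, were drawn up with earlier results known. Of 31 PPAR-alpha target genes outside the family, 14 were higher and none lower with nursing exposure (median log2 fold change 0.54), and 21 were higher and none lower with both exposures (median 0.86). Over all genes tested, 2.27% were called higher with nursing exposure and 3.06% with both. With nursing exposure Vnn1, a pantetheinase, changed by 1.88 ± 0.34, Aldh3a2, a fatty aldehyde dehydrogenase, by 0.77 ± 0.14, and the dienoyl-CoA reductases Decr2 and Decr1 by 0.59 ± 0.12 and 0.57 ± 0.098 (adjusted p from 0.00269 to 0.00801, edgeR). Without Ct-Ct_129 the both-exposure count was 12, and without Ct-Ct_139 it was 13. MetS-MetS_39, the library with the highest Acot1, had the highest level of the 23 libraries for 20 of the 31 genes. The share of all genes tested that were highest in that library was not counted, so this is not shown to be particular to the list. Cyp4a10, a fatty acid omega-hydroxylase, was at 2640 CPM there and next at 1086 in MetS-Ct_53, the pup with the second highest Acot1. Without MetS-MetS_39 the counts of genes called higher were 13 with nursing exposure and 15 with both.

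Of 6 tested carnitine shuttle and transferase genes, 4 were higher with nursing exposure (Crot, Cpt2, Cpt1a and Slc25a20, log2 fold changes 0.91, 0.52, 0.53 and 0.53), and 5 with both exposures (3 without Ct-Ct_129, Ct-Ct_139, MetS-MetS_39 or MetS-MetS_154); the latter 3 genes are also in the PPAR-alpha list. Crot moves medium-chain acyl groups out of peroxisomes, and the others carry long-chain groups into mitochondria. Of 17 acyl-CoA synthetases, which make the substrates of thioesterases, 3 were higher with nursing exposure: Acsl1 (0.51 ± 0.12), Slc27a2 (0.59 ± 0.13) and Acsf2 (0.45 ± 0.093), with 4 higher with both exposures; without Ct-MetS_50 the nursing count was 5. Acss2, which makes acetyl-CoA from acetate, had -1.56 ± 0.46 and was not called (adjusted p = 0.056, edgeR), but 1 synthetase was called lower in either comparison without Ct-Ct_33, Ct-Ct_130, MetS-Ct_70 or MetS-Ct_97. Of 15 genes of coenzyme A synthesis, breakdown and acyl-CoA binding, only Vnn1 was higher with nursing exposure, and Vnn1 and Ppcs (0.43 ± 0.10) with both (1 gene without Ct-Ct_129); without Ct-MetS_50, 1 gene was lower with nursing exposure. Nudt19, a peroxisomal coenzyme A hydrolase, had -0.29 ± 0.093 with nursing exposure (adjusted p = 0.076), Ppcs 0.20 ± 0.071 (0.104) and Ppcdc -0.11 ± 0.066 (0.357).

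None of the tested thioesterases outside the listed 10 was called. Acot6, at the far end of the type I gene cluster, had at least 43 counts in every library and log2 fold changes of -0.21 ± 0.20 with both exposures and -0.12 ± 0.14 with nursing exposure (adjusted p = 0.559 and 0.665, edgeR). Acot5, the gene between Acot3 and Acot6, had at most 2 counts in any library and Acot10 at most 1, and neither was tested. Them4, a mitochondrial thioesterase, had 0.39 ± 0.13 with both exposures (adjusted p = 0.0808) and Baat, the bile acid amino acid conjugating enzyme with an Acot-like fold, -0.12 ± 0.15 (0.668). Ppt1 and Lypla2, which remove acyl groups from proteins, had 0.23 ± 0.10 and -0.04 ± 0.10, and Ppt2 had 0.24 ± 0.24. Of the 6 tested, 2 had an unadjusted p under 0.05 with both exposures and 1 with nursing exposure (edgeR). Over all 14466 genes tested, 3528 and 3060 did, so these counts do not set the 6 genes apart. DESeq2 called 0 of the 6, and without Ct-Ct_33 the both-exposure count of calls was 2.

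Genes whose log2 CPM ran most like that of the 3 members with the smallest nursing p are given, with r over 23 libraries. Acot2 ran with Gpat3 (0.92), Crat (0.91), Eci1 (0.90), Slc22a5 (0.90) and Lgals4 (0.88), and Acot1 with Hsdl2 (0.93), Slc25a20 (0.93), Ephx2 (0.92), Cpt2 (0.92) and Crat (0.91). Acot11 ran with Khk (0.84), Tkfc (0.81), Lrtm1 (0.80) and Pygl (0.79). Khk and Tkfc encode enzymes of fructose breakdown, and their nursing log2 fold changes were -0.94 and -0.88. The correlations hold the group differences; with group means removed, Tkfc was the gene most like Acot11 (0.73), Crat most like Acot2 (0.89) and Retsat most like Acot1 (0.94).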

How the data were processed

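PolyA RNA-seq of liver from 23 mouse pups was used. The deposited table holds whole-number counts per gene, made by the authors with STAR and HTSeq (FastQC and DESeq2 are also named), per the submitters' processing notes; versions, genome build, strand setting and the treatment of reads matching several genes: not given in the sources used here. Although named as normalized, the table has unequal totals and size factors (0.623 to 1.43), so its values were taken as raw counts. Of 49585 rows, 259 had no symbol. Libraries of a group differed beyond sampling noise (chi-square per gene at least 16.9; Pearson's r 0.965 to 0.992, 55 pairs).

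Members and lists were chosen with earlier results of these data known. Counts were fitted with edgeR 4.0.16 (R 4.3.3): TMM factors, mean count of at least 10, 1 mean per group over all libraries, robust quasi-likelihood test, Benjamini-Hochberg adjustment over 14466 genes, threshold 0.05. CPM used TMM library sizes; levels per kilobase used the transcript with the longest coding part in GENCODE M21. Genes named outside the family were up to 4 of each list with the smallest nursing p, all tested other thioesterases, and the 5 genes most like each of 3 members (1 of these is not reported here); Cyp4a10, Acot5, Acot10 and Retsat were picked after their values were seen. Coding sequence identity replaced the planned protein identity. Alternatives were DESeq2 1.42.0, limma-voom (limma 3.58.1), DESeq2 size factors, other count filters, only the groups compared, and each library left out. The fit was tested on simulated data.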

Additional observations from a re-analysis of the deposited data

Results flagged for a closer look

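In 40 groups of 5 or 6 values (each member in each group), 6 had a highest library set apart from the rest by Dixon's test. Its cut-offs flag about 1 in 20 groups by chance, counting either end, if values are normal and groups independent. Here the members share the same libraries and CPM need not be normal, so that rate is only a rough guide. Acot1 was at 89.6 CPM in MetS-MetS_39 against 19.3 in the next MetS-MetS pup, Acot2 at 24.6 against 11.6, and Acot8 at 29.1 against 15.9, so 3 of the 6 came from that library. The others were Acot7 at 22.8 CPM in Ct-MetS_50 (next 16.9), Acot8 at 17.6 in Ct-Ct_4 (next 12.8) and Acot13 at 47.7 in Ct-MetS_145 (next 38.3).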

How the results depend on the processing

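Counts of members called moved with the filter and the tool. With both exposures, 2 of the 4 higher calls (Acot1, Acot2) were made with no filter on low counts and with only the groups compared, and between 1 and 4 with each library left out. With nursing exposure, 0 members were higher with no filter (adjusted p 0.0598 for Acot1 and 0.0566 for Acot2) and 1 to 2 with a library left out; 2 were lower with DESeq2 (Acot11 and Acot7, adjusted p = 0.0482 for the latter), and 0 to 2 with a library left out. In control-born pups 1 member was higher with DESeq2 (Acot2) and 1 with only the groups compared (Acot1), and 0 to 2 were lower with a library left out. The cause was not tested, except that leaving out the filter adds genes to the adjustment. The counts for nursing in MetS-born pups, for both prenatal comparisons and for the interaction were 0 under all alternatives run. For prenatal exposure alone, however, DESeq2 gave no adjusted p for Acot1, Acot2, Acot8, Acot9 and Acot11. For the birth dam in MetS-nursed pups it gave an adjusted p for Acot12 only. Its counts of 0 there do not cover the members without an adjusted p.

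Over all genes, nursing calls numbered 611 (1038 with DESeq2, 367 with no filter, 349 to 923 with a library left out), calls with both exposures 836 (1346, 457, 219 to 1354; 527 with limma-voom, 592 with only the groups compared), control-born nursing calls 138 (425, 95, 12 to 246; 47 with only the groups compared) and MetS-born nursing calls 60 (136, 20, 5 to 151; 16, 30 with the stricter filter, 23 with only the groups compared); for the birth dam in MetS-nursed pups they numbered 0 (73 with DESeq2, 0 to 31 with a library left out).

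Signs turned for uncalled values near 0. With limma-voom Acot13 had 0.0019 for nursing in MetS-born pups and Acot8 -0.0036 for the interaction. With a library left out, log2 fold changes ran from -0.066 to 0.10 (Acot9), -0.22 to 0.015 (Acot11) and -0.086 to 0.075 (Acot13) for nursing in MetS-born pups, from -0.09 to 0.08 for both exposures (Acot9), from -0.086 to 0.025 (Acot9) and -0.13 to 0.023 (Acot12) for prenatal exposure alone, and from -0.14 to 0.24 (Acot8) for the birth dam in MetS-nursed pups. The interaction ran from -1.32 to 0.50 (Acot1), -0.62 to 0.24 (Acot2), -0.48 to 0.45 (Acot3), -0.022 to 0.33 (Acot4), -0.082 to 0.08 (Acot7) and -0.22 to 0.16 (Acot8).

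Without division by length, 5 of the 10 members held their place in the order of levels; with group means removed, 5 of the 15 most alike genes were shared; and the single hexamer was in the promoters of 3 members where the repeat was in 0. No paired analysis was possible because the animal numbers of the groups differ, and no label pairs pups. Acot1, Acot2 and Acot11 had as few as 45, 64 and 52 counts in a library, which limits their precision.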
